A study of Homo sapiens with 3 samples.

Results

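Chaperonins are barrel-shaped complexes that take up an unfolded protein, enclose it and release it folded, using ATP. The mitochondrial chaperonin is built from HSP60, the barrel, encoded by HSPD1, and HSP10, the lid, encoded by HSPE1, and it folds proteins imported into the mitochondrial matrix. The cytosolic chaperonin, called CCT or TRiC, is a ring of related but different subunits encoded by TCP1, CCT2, CCT3, CCT4, CCT5, CCT6A, CCT7 and CCT8, and actin and tubulin are its best known clients. These 10 genes, 2 mitochondrial and 8 cytosolic, were taken by name from the 20033 protein-coding genes, and from the 62663 genes of every type, that GENCODE release 44 places on chromosomes 1 to 22, X and Y. The rule names the genes and uses no measured value, although earlier results of these data were known when they were chosen.

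The values come from ChIP-seq, the sequencing of DNA that was pulled down with a chromatin protein. The cells were untreated, wild-type NCI-H1299 cells, an established human lung cancer line, fixed with formaldehyde. The paper describes H1299 as p53-null, so wild-type here means the unmodified line. The study asked where ZBTB11, a zinc finger transcription factor, sits on chromatin. The 3 libraries were a ZBTB11 immunoprecipitation, a control immunoprecipitation with normal IgG, and an Input, which stayed out of the analysis. With 1 library in each group, the differences below have no replicate check and carry no test. The ZBTB11 list held 346891 peaks on these chromosomes, called by the authors at p below 0.05, with a median of 5 fragments at the summit (lowest 3, highest 515) over a genome-wide background of 1.35 fragments. The IgG list held 26712 peaks on 4 chromosomes (1, 10, 21 and Y), with a median of 6 fragments and a background of 1.55, so of these genes only CCT3 and CCT8 had a control value. The total number of reads behind either list is unknown here.

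Each peak is given by its fragments at the summit, solved from the deposited fold enrichment and p, with an exact Poisson 95% interval that covers counting error only. The fold enrichment is the summit over a local background modelled by the peak caller, and a peak is called strong below where its p was 1e-05 or less. Distances refer to transcript starts in hg38, and the MANE Select transcript is the one reference transcript per gene agreed between annotation projects. The peak with the smallest p within 1 kb of that transcript's start is called the promoter peak.

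Short sequences found in these peaks are shown first, in hg38 and 5′ to 3′, so that the letters can be read beside the values. The longer consensus that was searched first was at the summit of CCT2 alone, and a shorter hexamer was chosen after the values were seen. The promoter peaks of CCT7, CCT2, CCT5 and TCP1 held this hexamer, CGGAAG, within 50 bp of the summit, and the other members did not. That is 4 of the 10, against 30.1% of protein-coding genes with a strong promoter peak. In the next lines capitals mark the hexamer, or, for CCT2, the longer consensus CCGGAAG that contains it, and the strand is the one read.

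CCT7, chr2:73234233-73234262, plus strand: accatagagtagCGGAAGtggtccgttctc
CCT2, chr12:69585433-69585462, minus strand: gactgaaggaagCCGGAAGtgacgccacac
CCT5, chr5:10250277-10250306, minus strand: cggagaccgctaCGGAAGcgagaatgcact
TCP1, chr6:159789697-159789726, plus strand: acaggactgtgaCGGAAGtgaggctccggg

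In a second set, shown because these are chaperone genes and not for their place at a summit, capitals mark heat shock elements, the alternating GAA and TTC units that heat shock factor HSF1 recognises. They were found in the peak shared by HSPD1 and HSPE1 and in that of CCT4.

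HSPD1 and HSPE1, chr2:197500062-197500091, plus strand: gctcggTTCCAGAACTTTCCAGAAaatgcc
CCT4, chr2:61888595-61888624, plus strand: actgccTTCACGAACCTTCCAGAAagcggc

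ZBTB11 peaks lay within 3 kb of an annotated start of all 10 genes, as they did for 87.7% of protein-coding genes. A strong peak lay within 3 kb of 9 of the 10, against 46.9% of protein-coding genes, and CCT3 was the exception. Within 1 kb of the MANE Select start 8 of the 10 had a strong peak, against 41.4% of the 19061 protein-coding genes with such a start, and CCT3 and CCT8 did not. With 10 genes, of which HSPD1 and HSPE1 share a peak, these shares are descriptions. The promoter peaks held between 10 and 253 fragments, with a median of 26 over the 10 genes. The median was 13 over the 13152 protein-coding genes with a promoter peak of any p, and 27 over those whose promoter peak was strong (quartiles 15 and 64).

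**Figure D1:**
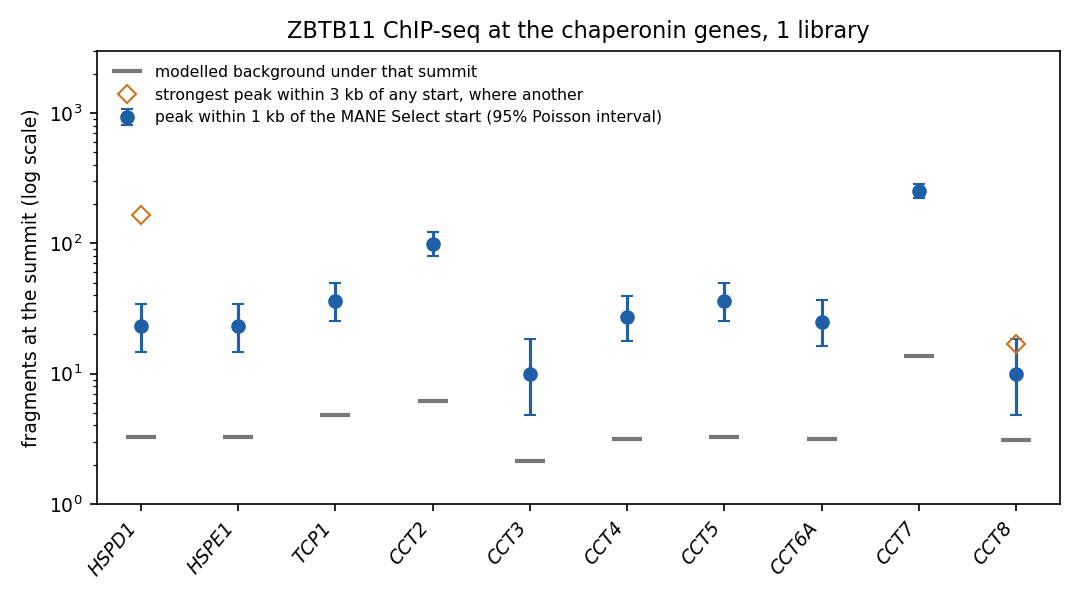
Fragments at the summit of the ZBTB11 peak near each chaperonin gene in 1 library, on a log axis. Filled points are promoter peaks with exact Poisson 95% intervals, grey bars are the modelled background, and open diamonds are the strongest peak within 3 kb of any start where that is another peak (HSPD1, 164 fragments, and CCT8, 17 fragments). CCT7 stands highest at 253 fragments and CCT3 and CCT8 lowest at 10 each.

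HSPD1 and HSPE1 lie head to head on chromosome 2 and are transcribed in opposite directions, HSPD1 on the minus strand from 197499840 and HSPE1 on the plus strand from 197500379. Their MANE Select starts are 539 bp apart. Between them run alternative first exons, and the closest annotated starts of both genes are 16 bp apart. A single ZBTB11 peak, chr2:197499280-197500715, covered both starts and the whole stretch between them. It held 23 fragments at the summit (95% interval 14.6 to 34.5) over a background of 3.28, 5.61 times enriched, with a −log10 p of 12.8. Its rank by p was 6218 in the list, and 24.3% of protein-coding genes had a promoter peak with a larger −log10 p.

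The peak was 1436 bp wide, against a median of 719 bp over the 14793 strong peaks, of which 3.24% were at least as wide. It reached 560 bp into HSPD1 and 336 bp into HSPE1, measured from the MANE Select starts. Under it lay 18 annotated starts of HSPD1, 5 of HSPE1 and 1 of the HSPE1-MOB4 readthrough transcript. The summit, at 197499846, was on the HSPD1 side. It stood 6 bp upstream of the HSPD1 start and 533 bp upstream of the HSPE1 start, outside the MANE Select transcripts and within the 5′ untranslated exons of alternative HSPD1 transcripts. One peak over both starts gives no separate value for either gene.

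The heat shock element printed above had its centre 230 bp from this summit, 236 bp upstream of the HSPD1 start and 303 bp upstream of the HSPE1 start, in an alternative first exon of HSPD1. Its match was an inverted pair of units, GAANNTTC, followed by NNGAA, on both strands. Within 50 bp of the promoter-peak summit this pattern occurred at 0 of the 10 members, against 0.14% of genes with a strong promoter peak. In the RefSeq promoters described below it was found in 0 of 9 members, against 0.49%. A wider window of 1437 bp around the summit was given about the width of the shared peak. That peak holds the element, so the match of HSPD1 and HSPE1 was fixed by this choice and is no independent result. In such windows the pattern occurred at 1.6% of the 7883 protein-coding genes with a strong promoter peak. Among the members it occurred in the shared window of HSPD1 and HSPE1 and in that of CCT4, inside their peaks. It also occurred in that of CCT8, outside its peak, but CCT8 had no strong promoter peak and lies outside the genes behind that share. The CCT4 element was 186 bp from the summit and 47 bp inside the gene, in its 5′ UTR. A match says only that the letters are there. The cells were not heat shocked, and HSF1 was not measured.

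The strongest peak within 3 kb of any HSPD1 start was another one, at chr2:197515572-197516419. It held 164 fragments (140 to 191) over a background of 8.0, with a fold enrichment of 18.3 and a −log10 p of 150, and ranked 802. Its summit at 197515917 was 820 bp from the start of 1 HSPD1 transcript that begins far upstream, but 16077 bp from the HSPD1 MANE Select start and 149 bp from that of MOB4, a component of the STRIPAK phosphatase complex. MOB4 starts lay under this peak and no HSPD1 start did. One more HSPD1 peak, chr2:197487340-197487597, lay in an intron and held 5 fragments. The intervals of the shared promoter and of the MOB4 peak did not overlap (14.6 to 34.5 against 140 to 191).

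**Figure D2:**
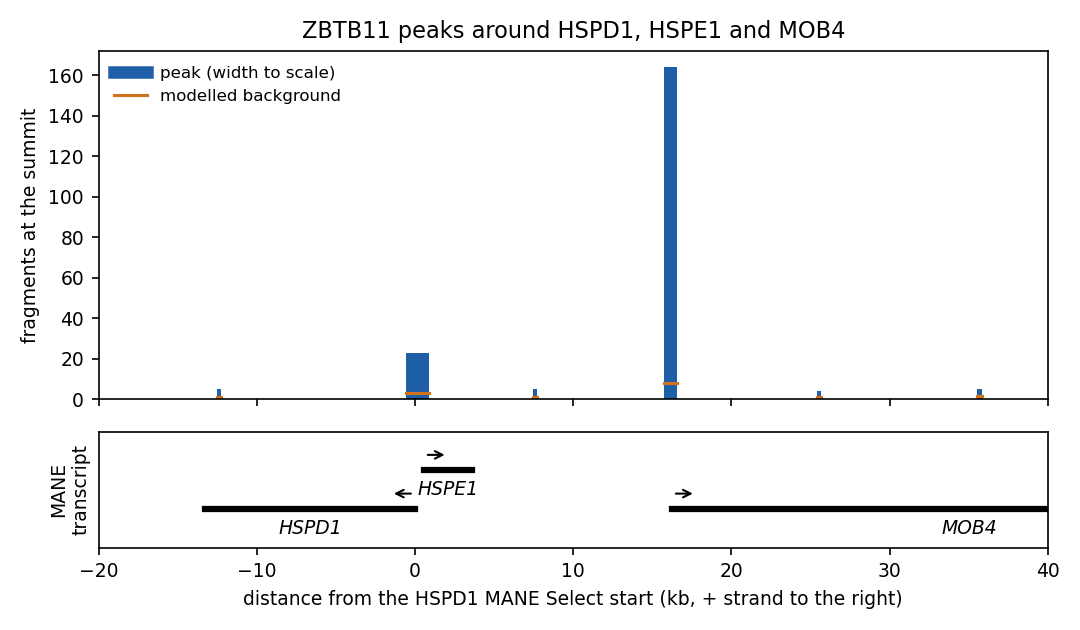
ZBTB11 peaks around HSPD1, HSPE1 and MOB4, plotted by distance from the HSPD1 MANE Select start in kb. Bar height is fragments at the summit, bar width is the peak, orange lines are the modelled background, and arrows show the direction of transcription. The peak over the shared HSPD1 and HSPE1 promoter (23 fragments) is wider and lower than the one at MOB4 (164 fragments).

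CCT7, the eta subunit, had the highest promoter peak of the group. The peak at chr2:73233574-73234762 held 253 fragments (223 to 286) over a background of 13.7, with a fold enrichment of 17.3 and a −log10 p of 220. It ranked 551 in the list, and 3.03% of protein-coding genes had a larger promoter value. Its summit at 73234265 was 43 bp upstream of the MANE Select start at 73234308, and 4 bp from an alternative CCT7 start. A further CCT7 peak in an intron held 3 fragments, the lowest number in the list.

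CCT2, the beta subunit, came next. Its peak at chr12:69585158-69585883 held 99 fragments (80.5 to 121) over a background of 6.19, with a fold enrichment of 13.9 and a −log10 p of 81.4. The summit at 69585491 was in the 5′ UTR, 32 bp inside the gene. The 95% interval of CCT2 overlapped neither that of CCT7 nor that of CCT5, so these steps in the order exceeded counting error in this library.

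CCT5 and TCP1, the epsilon and alpha subunits, each held 36 fragments (25.2 to 49.8). The CCT5 peak at chr5:10249937-10251006 stood over a background of 3.25, for a fold enrichment of 8.70, and its summit at 10250319 lay in the 5′ UTR, 39 bp inside the gene. The TCP1 peak at chr6:159788890-159791277 had a higher background, 4.82, and a fold enrichment of 6.35, and its summit at 159789692 was 90 bp upstream of the start. At 2388 bp the TCP1 peak was the widest of the group, and 0.027% of strong peaks were at least as wide. It also covered starts of MRPL18, a protein of the mitochondrial ribosome transcribed the other way.

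CCT4 and CCT6A, the delta and zeta subunits, stood close to the mitochondrial pair. The CCT4 peak at chr2:61887812-61889041 held 27 fragments (17.8 to 39.3) with a fold enrichment of 6.71, and its summit was 139 bp upstream of the start at 61888656. The CCT6A peak at chr7:56051310-56052383 held 25 fragments (16.2 to 36.9) with a fold enrichment of 6.23, and its summit was 200 bp upstream of the start at 56051765. From CCT5 and TCP1 down to CCT4, CCT6A and the HSPD1 and HSPE1 peak, the intervals of neighbours overlapped, so their order was not resolved.

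CCT3 and CCT8, the gamma and theta subunits, had the weakest promoter peaks, with 10 fragments each (4.8 to 18.4), an interval that still overlapped that of the HSPD1 and HSPE1 peak. The CCT3 peak at chr1:156337785-156338254 had a fold enrichment of 3.50 and a −log10 p of 4.81, just short of the value for a strong peak, and passed a q of 0.05. It lay in an intron, its summit 293 bp inside the gene, and was the only promoter peak of the group that did not cover its MANE Select start. On each side of it stood a weaker peak of 8 fragments, and the upstream one had its summit 3 bp from a start of TSACC, a co-chaperone gene on the opposite strand. The CCT8 peak at chr21:29073462-29073736 had a fold enrichment of 2.67 and a −log10 p of 3.39, did not pass a q of 0.05, and had its summit 138 bp inside the gene. For CCT3 42.6% and for CCT8 51.1% of protein-coding genes had a promoter peak with a larger −log10 p.

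The strongest peak within 3 kb of a CCT8 start was chr21:29076407-29076935, with 17 fragments (9.9 to 27.2) and a −log10 p of 7.62. It was intergenic, 2985 bp from the CCT8 start and 588 bp from the nearest start of MAP3K7CL. Its interval overlapped that of the CCT8 promoter peak. In all, 26 different peaks lay within 3 kb of a start of the 10 genes, of which 10 passed a q of 0.05. The 16 others held 3 to 10 fragments with fold enrichments of 1.7 to 2.94, and included 1 at the start of SUMF2 beside CCT6A and 1 at RHBG, near an alternative CCT3 start.

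**Figure D3:**
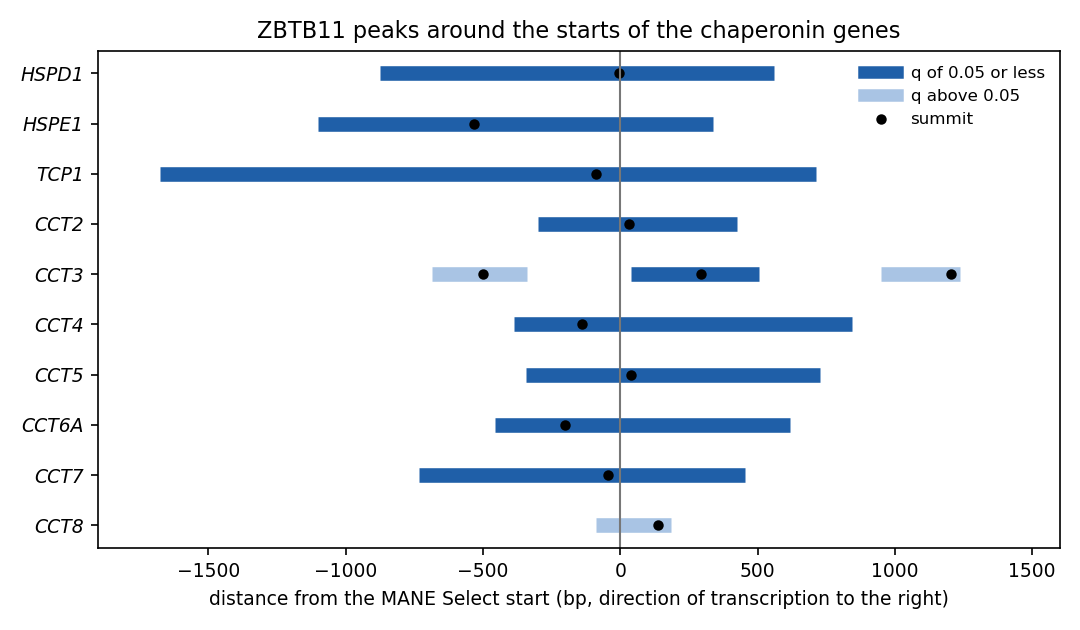
ZBTB11 peaks around the MANE Select start of each chaperonin gene, by distance from that start in bp, with transcription running to the right. Dark bars are peaks with a q of 0.05 or less, light bars those above it, and dots are summits. The bars of 9 genes cross the start, the TCP1 bar is the widest, and the CCT3 bar begins inside the gene.

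The IgG control bears on CCT3 and CCT8 alone. Within 3 kb of any start it held 3 peaks for CCT3 and 1 for CCT8, against 67.3% of protein-coding genes on its chromosomes with at least 1. Within 1 kb of the MANE Select start neither gene had an IgG peak, while 37.2% of those genes had one. Near CCT3 the IgG peaks held 5, 6 and 7 fragments, and near CCT8 5 fragments, none with a q of 0.05 or less. The IgG peak of 7 fragments, chr1:156367558-156367949 (fold enrichment 3.04), had its summit 29492 bp upstream of the CCT3 MANE Select start and 53 bp from an alternative start. None of the 4 overlapped a ZBTB11 peak. The ZBTB11 promoter peaks of 10 fragments had intervals (4.8 to 18.4) that overlapped those of the IgG peaks, which stood at other positions. No fragment count of the IgG library at the ZBTB11 summits was at hand, so the difference there could not be given. For the other 8 genes no IgG value was analysed here.

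**Figure D4:**
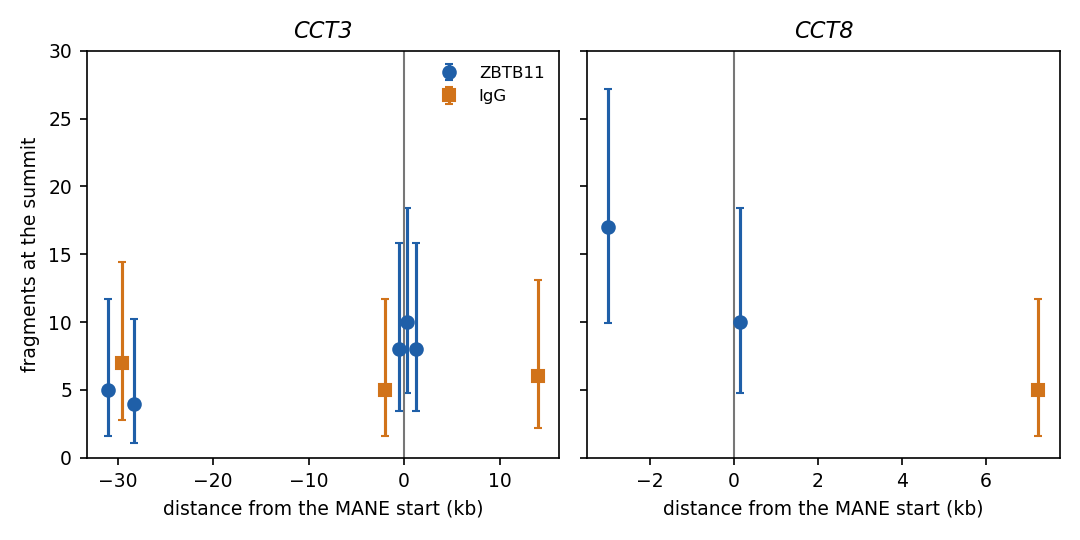
Fragments at the summit, with exact Poisson 95% intervals, of ZBTB11 peaks (circles) and IgG peaks (squares) within 3 kb of any start of CCT3 and CCT8, by distance from the MANE Select start in kb. Within 1 kb of the MANE Select start each gene has a ZBTB11 peak of 10 fragments (CCT3 293 bp and CCT8 138 bp inside the gene, by the summit), and the 4 IgG peaks of 5 to 7 fragments lie farther away.

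An opposite-strand start nearby was a feature that the choice of genes did not use. All 10 genes had such a start of another gene within 1 kb of one of their own annotated starts, against 36.8% of protein-coding genes. Counted from the MANE Select start alone it was 8 of the 10, against 29.4% of protein-coding genes with such a start. The exceptions were CCT7, whose partner started 1069 bp away, and CCT8. Over all annotated starts the opposite gene was protein-coding for 8 of the 10, against 17.7%, and HSPD1 and HSPE1 count each other. The partners and the distance between the closest starts were MRPL18 for TCP1 (109 bp), TSACC for CCT3 (192 bp), COMMD1 for CCT4 (53 bp), ATPSCKMT, which methylates a subunit of ATP synthase, for CCT5 (32 bp), PSPH, the last enzyme of serine synthesis, for CCT6A (81 bp) and PRADC1 for CCT7 (181 bp). CCT2 had MIR3913-1, a microRNA gene, at 603 bp, and CCT8 a long noncoding RNA gene, ENSG00000286018, 22 bp from an internal CCT8 start.

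The promoter peak spanned starts of the partner for TCP1, CCT4 and CCT6A as well as for HSPD1 and HSPE1, so there too the peak gives no separate value for either gene. Of the 8 members with a protein-coding partner 7 had a strong promoter peak, CCT3 being the exception. Among all protein-coding genes a strong promoter peak was found at 64.2% of the 3401 with such a partner and at 36.4% of the 15660 without. The GC content of the 501 bp around the summit ranged from 54.7% (CCT3) to 72.7% (HSPD1 and HSPE1), with a median of 62.9%, against 65.9% over strong promoter peaks. The members here include CCT3 and CCT8, which had no strong promoter peak.

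The consensus CCGGAAG or CAGGAAG, of the kind ETS factors bind, was searched on both strands within 50 bp of the summit. The paper found it de novo in high ZBTB11 peaks of this same experiment, so it is not independent of peak height. At the strongest peak within 3 kb it was present at 1 of the 10 genes, CCT2, against 15.8% of the 17575 protein-coding genes with a peak, and at the promoter peaks again at CCT2 alone, against 24.8% of genes with a strong one. In CCT2 the site lay 12 bp upstream of the MANE Select start. The shorter hexamer CGGAAG, which was chosen after these values were seen, overlaps CCGGAAG and was present at 4 of the 10, against 30.1% of genes with a strong promoter peak. All 4 were among the 8 members with a strong promoter peak. CCT3 and CCT8, which had no strong promoter peak, lacked the hexamer. More than 50 bp from the summit, the CCT8 promoter peak still held 2 copies of CAGGAAG. That of CCT5 held 1 there, and that of TCP1 held 1 copy of CCGGAAG. The hexamer lay 61 bp upstream of the start in CCT7, 109 bp upstream in TCP1 and 11 bp inside the 5′ UTR in CCT5, and 18, 19 and 28 bp from the summit.

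The 4 members with the hexamer held 36 to 253 fragments, and the 6 without it, of which HSPD1 and HSPE1 share a peak, held 10 to 27. Lowest were CCT3 and CCT8 at 10 each, which had no strong promoter peak, and the others without the hexamer held 23 to 27. Because the hexamer was chosen after these values were seen, the split is no independent result. The counting intervals of TCP1 and CCT5 (25.2 to 49.8) overlapped those of CCT4 (17.8 to 39.3), CCT6A (16.2 to 36.9) and the HSPD1 and HSPE1 peak (14.6 to 34.5). These are all the members without the hexamer that had a strong promoter peak. The intervals of CCT7 and CCT2 overlapped none of the members without the hexamer. Over all protein-coding genes with a strong promoter peak the median was 51 fragments for the 2369 with the hexamer and 22 for the 5514 without it, with wide overlap. At least 100 fragments were held by 30.8% of the former and 12.2% of the latter. These are correspondences in 1 library, and no factor other than ZBTB11 was measured. The genes without the hexamer can still hold CAGGAAG, the other form of the consensus. Because the consensus was derived from high peaks of this library, the higher pileup beside its core is no independent evidence.

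**Figure D5:**
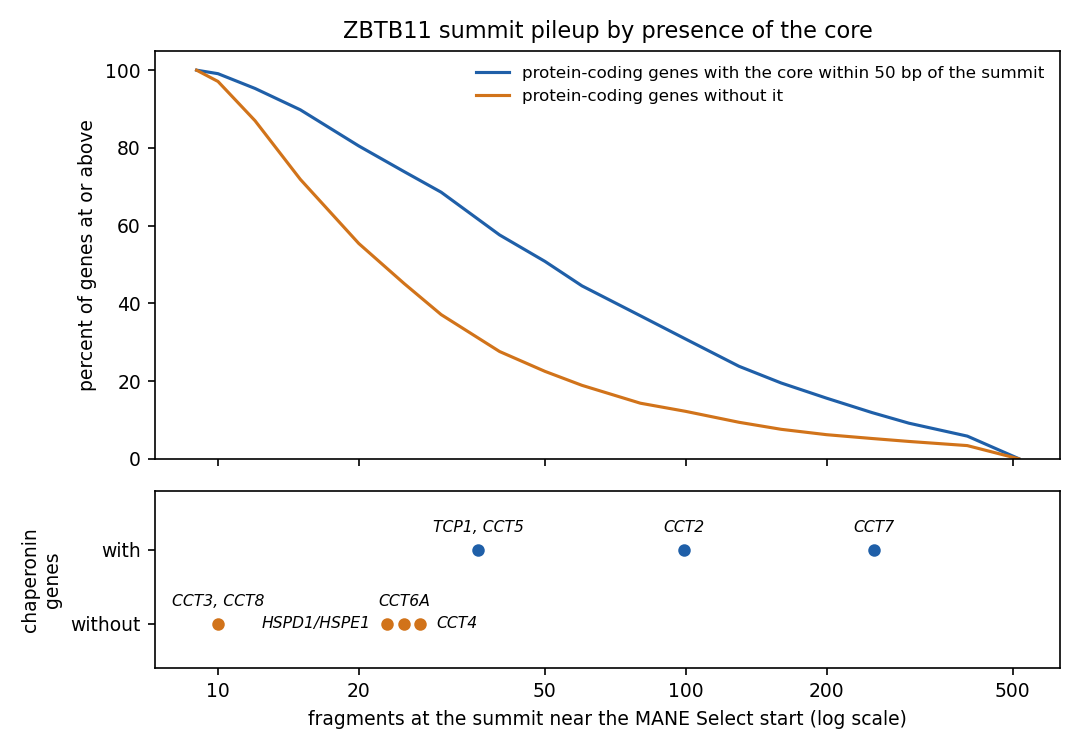
Upper panel, percent of protein-coding genes with a strong promoter peak (vertical axis) that held at least the number of fragments on the log horizontal axis, with and without the hexamer CGGAAG within 50 bp of the summit. Lower panel, the chaperonin genes on the same axis, where the 4 genes with it lie at 36 to 253 fragments and the 6 without it at 10 to 27. CCT3 and CCT8, at 10 fragments each, had no strong promoter peak and so lie outside the genes of the upper panel. The hexamer was chosen after these values were seen.

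In the RefSeq promoters (GRCh38.p14, 250 bases before to 50 after the start), 9 of the 10 genes were matched by symbol. The RefSeq start was the MANE Select start for 7 of them, and lay 434 bp from it for HSPD1 and 257 bp from it for CCT5. CCGGAAG or CAGGAAG was found in 2 of the 9, CCT2 and CCT8, against 21.8% of all 35116 promoters in the table. GGGCGG, the GC box, was found in 7 of the 9, all but CCT4 and CCT5, against 45.0%, and the matches of HSPD1 and HSPE1 are the same bases read on opposite strands. CCAAT was found in 4 of the 9, TCP1, CCT2, CCT3 and CCT8, against 34.6%. Within 50 bp of the promoter-peak summit, GGGCGG was found at 1 of the 10, TCP1, against 34.4% of genes with a strong promoter peak. CCAAT was found there at 1 of the 10, CCT3, against 7.28%. As CCT3 had no strong promoter peak, it lies outside the genes behind that share.

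The genes that work with the chaperonins were read from 6 lists. Of the 6 subunits of prefoldin, which hands unfolded actin and tubulin to CCT, 2 had a strong promoter peak. The strongest and weakest peaks within 3 kb were those of PFDN5 (156 fragments) and VBP1 (4 fragments). PFDN5 had no peak within 1 kb of its MANE Select start, so its 156 fragments are not those of a promoter peak. Of 4 CCT cofactors 2 had a strong promoter peak, with TXNDC9 at 371 fragments and PDCL3 at 7. Of 5 chaperonin-like genes 4 had one, with BBS10 at 234 and CCT8L2 at 3. Of 14 mitochondrial chaperones and proteases 11 had one, with GRPEL2, a nucleotide exchange factor for the mitochondrial HSP70, at 401 and TRAP1 at 4. Of 14 cytosolic heat shock chaperones 13 had one, with AHSA1, an activator of HSP90, at 352 and HSPB1 at 9. Of 9 genes for CCT clients 7 had one, with TUBA1C at 81 and TUBG1 at 6. Beside these lists the 10 chaperonin genes had 8, and the background share was the 41.4% given above.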

How the data were processed

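The authors sheared formaldehyde-fixed NCI-H1299 chromatin, immunoprecipitated it for ZBTB11 or with IgG, used BWA for alignment to hg38, and ran MACS for each antibody on its own. The release of MACS behind the deposited files is uncertain, as their layout is that of later releases. The deposited fold enrichment is a ratio of summit to modelled background. For significance the authors' files give −log10 p, and −log10 of the q-value. A score column, also deposited, was not used.

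Fragments at the summit (k) and background (b) were solved from fold = (k + 1)/(b + 1) and the Poisson probability of more than k, and 100% of peaks in both lists were solved within 0.001 of the deposited −log10 p. The solution was tested on simulated data. Peaks were assigned by interval to any GENCODE 44 start within 3000 bp. Motifs were searched on both strands. The members and all lists were chosen with earlier results of these data known. Genes named were the members, opposite-strand genes within 1000 bp, and the strongest and weakest gene of each list. Each group had 1 library, so no test was run. Intervals are exact Poisson 95% limits. Alternatives changed the window, the transcripts, the p or q limit, the choice of peak and the motif search. Python 3.11.15, pandas 2.3.3, scipy 1.17.1 and matplotlib 3.10.9 were used.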

Additional observations from a re-analysis of the deposited data

How the results depend on the processing

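No paired analysis was possible because there was 1 library in each group. Of 32 alternative settings for the 8 kinds of value, 25 left the value within 1.5 times the one reported or within its Poisson interval. The counts of chaperonin genes with any peak (10) and with a strong peak (9) stayed between 9 and 10 and between 8 and 10. The consensus count, 1 gene, became 0 within 25 bp of the summit, 2 within 100 bp, 0 with CAGGAAG alone and 4 with CGGAAG, the last chosen after seeing the data. The strongest peak at HSPD1 and HSPE1, 164 fragments, became 23 when taken within 1 kb of a MANE Select start, also chosen after seeing the data, because the first peak lies at MOB4. The 4 IgG peaks near CCT3 and CCT8 became 0 at a q of 0.05 or less and 2 within 1 kb. All limits on the MANE Select start were set after seeing the data. With 1 library, no depth total and no IgG value for 8 of the 10 genes, the intervals cover counting error only.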

Other observations

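The genome also holds pseudogenes of the chaperonins, most of them processed copies, which arise from messages that were reverse-transcribed and inserted without the parent's promoter. Of 58 annotated pseudogenes named after one of the 10 genes, 37 (63.8%) had a ZBTB11 peak of any p within 3 kb and 1 (1.72%) had a strong one. Over all 15233 annotated pseudogenes these shares were 54.6% and 3.92%. That one was CCT6P1 on chromosome 7, annotated as a transcribed unprocessed pseudogene and so not a copy of this kind, with 39 fragments, a fold enrichment of 7.43 and a −log10 p of 24.1, and its summit was 7 bp from the start of another gene, ENSG00000291124. Among the 10 parent genes 9 had a strong peak within 3 kb, against 46.9% of protein-coding genes. For CCT8 that peak was intergenic and nearer to a start of MAP3K7CL than to its own.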
